A study of Drosophila melanogaster with 12 samples.

Results

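The transcripts of 5 genes of the cell death machinery were followed through metamorphosis in γ neurons of the Drosophila melanogaster mushroom body: the initiator caspase gene Dronc, the adaptor gene Dark, the effector caspase genes Drice and Dcp-1, and the inhibitor gene Diap1. The members were chosen by name, and all 5 of 5 were found under these symbols among the 17050 genes of the deposited table. All 5 were among the 6969 genes that passed the filter on low values, which asked for 50 or more in 3 or more libraries. Values are reads per 10000000 mapped reads.

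The 12 libraries cover pupae aged 6, 12, 18 and 24 h after puparium formation, 3 per age, lettered A to C. All carried the same genotype, with UAS-HR51 RNAi over the driver 71G10, 1 copy of UAS-RedStinger and y,w/+. RNA interference against the nuclear receptor gene Hr51 was therefore present at all times. Males and females were taken at random. The line 71G10 is known as a driver active in γ neurons, and RedStinger is a red nuclear reporter. For each library 1000 DsRed-positive cells were sorted from dissociated brains and RNA was read from its 3′ ends by MARS-seq. No control genotype was analysed here: ages are compared with ages, and the knockdown could not be sized. Hr51 itself lay between 2661 and 5666. Whether the 3 libraries of an age stem from separate dissections is not stated in the labels, so p-values measure a spread that may be technical.

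Caspases are cysteine proteases that are made as inactive precursors. In the fly, the adaptor Dark assembles Dronc into a complex in which Dronc becomes active and cleaves the effector caspases Drice and Dcp-1, which then cleave many cell proteins. Diap1 is a ubiquitin ligase with BIR domains that binds Dronc and the effector caspases and holds them in check, and the proteins Reaper, Hid, Grim and Sickle release that hold by binding Diap1. Caspases also act in cells that do not die, and Dronc is known to take part in the pruning of dendrites in sensory neurons of the fly. In normal development the γ neurons survive metamorphosis, losing and then regrowing part of their axons. Whether axons were lost or regrew under the Hr51 knockdown was not measured here.

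Libraries held 1597241 to 3752666 mapped reads. Of the 14 Kenyon cell and 6 neuronal markers, all but sNPF had reads in all 12 libraries. The gene sNPF was listed at 0 in 1 library, and the lowest values of Rbp9 and ab were 24.0 and 106. Whether these markers tell γ neurons from other Kenyon cells was not tested. Of the 5 hemocyte markers, Hml, He and NimC1 were listed at 0 in all 12 libraries and srp in 11, while Pxn had reads in all 12, from 5.33 to 545. Their sum took 0.00112% to 0.00545% of the reads at 24 h, against 5.33e-05% to 0.00353% at 6 h. Of the 4 muscle markers, Mhc was listed at 0 in all 12 libraries and the highest value was that of Mlc2, at 59.9. The 14 Kenyon cell markers took at least 2.84% of the reads at 24 h, against at most 2.49% at 6 h. The 6 neuronal markers took 1.20% to 1.52% at 24 h, against 0.741% to 0.959% at 6 h. The 9 glial markers took 0.0191% to 0.0320% at 24 h, against 0.0304% to 0.0591% at 6 h, and nrv2 and drpr, with means of 2899 and 625, held most of that sum. The other 7 glial genes averaged 3.57 to 29.5, and the glial regulator gene repo was listed at 0 in 6 of the 12 libraries. The part of these shares in the results below was not tested. In bulk RNA, fewer expressing cells and less RNA per cell cannot be told apart.

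Some libraries stood apart from others of their time. By Pearson's r across 6969 genes (genes are not independent of each other), the closest library came from the same time for 4 of the 12. Replicates B and C of 6 h were both closest to replicate A of 12 h (r = 0.869 and 0.849). Replicate B of 12 h and replicate A of 18 h were closest to each other (r = 0.842). Replicate B of 18 h was closest to replicate A of 6 h, and replicate C of 18 h to replicate C of 24 h (r = 0.819). Replicate A of 6 h was closest to replicate B of 18 h (r = 0.875), and replicate A of 12 h was closest to replicate B of 6 h (r = 0.869). All labels were kept. Whether these libraries carry the right time was not tested, and every mean and every test rests on the labels. Every 6 h and 12 h mean over 3 replicates and every 12-library test includes replicate A. For each member the change from 6 to 24 h is given for 3 sets of libraries. They are all 12 libraries, the 8 lettered B or C (n = 2 at each age) and the 10 without replicate A of 6 and 12 h. Other changes are given for some of these sets only. The sets were chosen with earlier results of these data known.

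Over the whole interval the mean of each of the 5 genes was lower at 24 h than at 6 h. With all 12 libraries none of the 5 passed the test, nor did any of the 6969 genes. The mean at 24 h, as a percentage of that at 6 h, was 29.9% for Drice, 35.6% for Dcp-1, 39.4% for Dronc, 56.0% for Diap1 and 63.3% for Dark. With replicates B and C alone these percentages were 28.8%, 33.8%, 28.2%, 51.7% and 47.0% for the same genes in the same order. In those 8 libraries Dronc, Drice, Dcp-1 and Diap1 fell between 6 and 24 h and Dark did not pass the test. Of all genes, 4.78% were called lower there and 5.29% higher. The same 4 genes fell in the 10 libraries, where 5.15% of all genes were called lower and 6.39% higher.

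**Figure D1:**
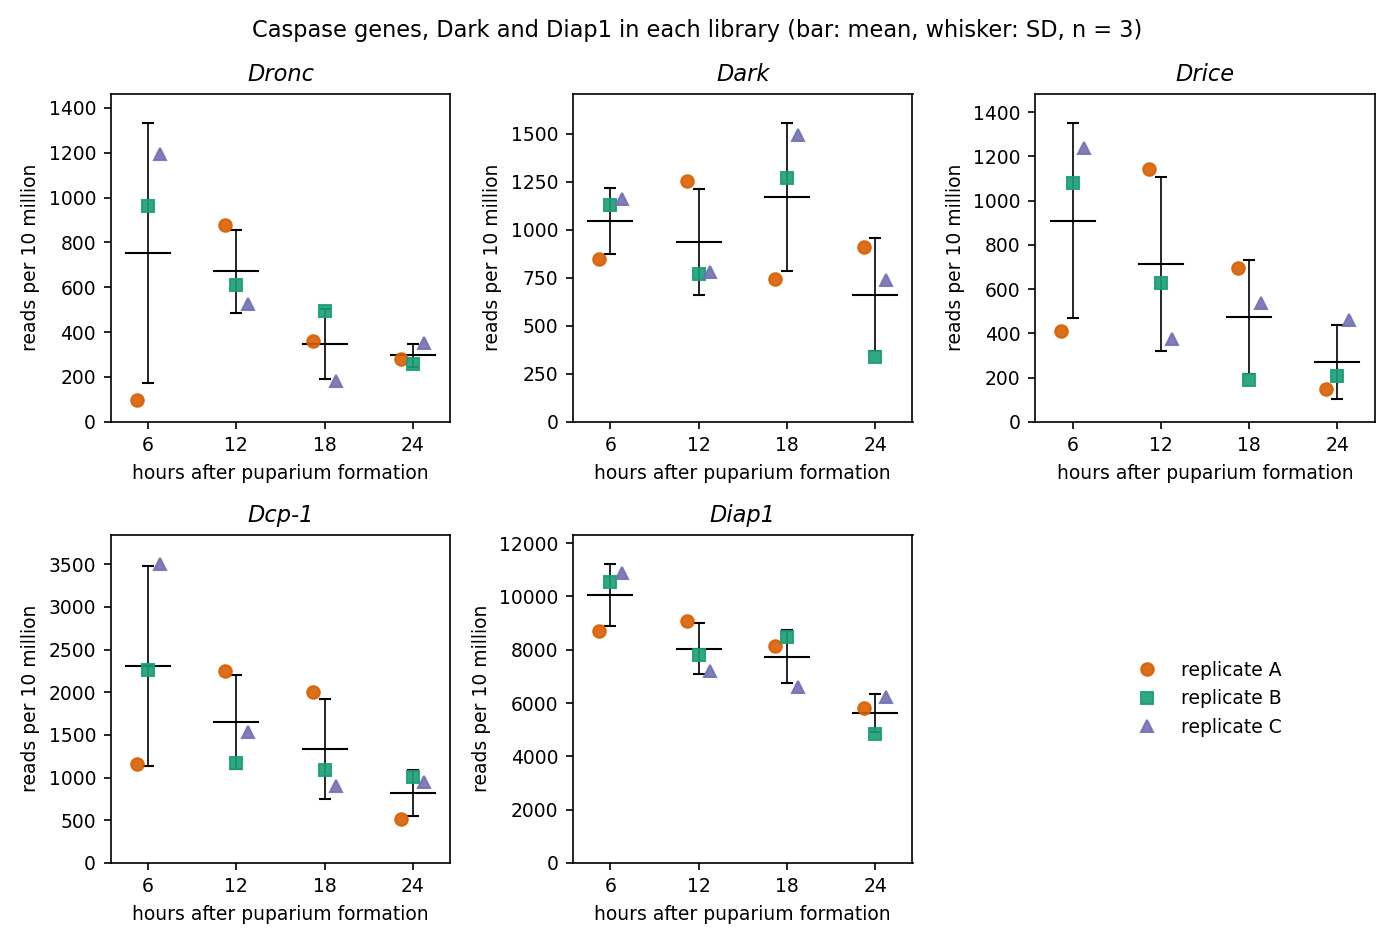
Value of each gene, in reads per 10000000 mapped reads on a linear axis that starts at 0, against hours after puparium formation. Symbols are single libraries, bars are means and whiskers are SDs (n = 3). Replicate A of 6 h lies below B and C for every gene, from 99.1 for Dronc to 8723 for Diap1.

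Dronc (FBgn0026404) lies on the plus strand of chromosome 3L (dm6), at 9968479 to 9971002, in a single annotated transcript. It encodes the initiator caspase, the first protease of the cascade. The 6 h libraries A, B and C read 99.1, 965 and 1196, and those of 12 h read 876, 612 and 523. Values were 360, 494 and 183 for 18 h, then 281, 256 and 352 for 24 h. The lowest of the 12 libraries was replicate A of 6 h, with 23 reads and a 95% counting interval of 62.8 to 149, while B and C of 6 h were the highest. The libraries of 24 h overlapped those of 6 h through replicate A alone, and all 3 libraries of 18 h lay below all 3 of 12 h, as for 5.91% of all genes.

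Means of Dronc over the 3 replicates were 753 ± 578 (SD, n = 3) for 6 h, 671 ± 183 for 12 h, 346 ± 156 for 18 h and 296 ± 49.9 for 24 h. Its log2 change over the whole interval was −0.73 ± 0.71 (SE), with a 95% interval of −2.24 to 0.79, which limma left uncalled (adjusted p = 0.719). Leaving replicate A aside, the mean was 304 ± 67.9 (SD, n = 2) at 24 h, against 1080 ± 163 at 6 h. Dronc fell in these, by 1.83 ± 0.51 in log2 (SE, limma adjusted p = 0.0306), and in the 10 libraries by 1.87 on the log2 scale (limma adjusted p = 0.0116). The 12-library value turns on replicate A of 6 h: without that library alone, the log2 change was −1.87 (limma adjusted p = 0.0126). The 8-library call ended without replicate B or C of 6 h or without replicate B or C of 24 h, where the log2 change lay between −2.06 and −1.61.

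Dark (FBgn0263864), which encodes the adaptor that activates Dronc and is related to mammalian Apaf-1, lies on the plus strand of chromosome 2R, at 17020027 to 17026703, with 2 annotated transcripts. The 6 h libraries A, B and C read 849, 1130 and 1158, and those of 12 h read 1256, 770 and 783. Values were 746, 1270 and 1494 for 18 h, then 908, 335 and 741 for 24 h. The range of 24 h overlapped that of 6 h, and the highest of the 12 values was that of replicate C of 18 h. Unlike the order of the other 4 means, which ran down from 6 to 24 h, the mean of Dark was highest at 18 h, at 1170 ± 384 (SD, n = 3), with 1046 ± 171 at 6 h, 936 ± 277 at 12 h and 662 ± 295 at 24 h. The ranges of neighbours in this order overlapped. The log2 change of Dark from 6 to 24 h was −0.77 ± 0.39 (SE; limma adjusted p = 0.41). It was −1.20 ± 0.38 in B and C (adjusted p = 0.0627) and −0.91 in the 10 libraries (adjusted p = 0.18), so Dark was called in none of the 3 sets. The antisense gene CR44390 overlaps Dark with no shared exon base and reached at most 181.

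Drice (FBgn0019972) encodes an effector caspase and lies on the plus strand of chromosome 3R, at 29799658 to 29801584. The 6 h libraries A, B and C read 409, 1079 and 1240, and those of 12 h read 1142, 629 and 372. Values were 694, 190 and 539 for 18 h, then 148, 206 and 461 for 24 h. Replicate A of 6 h lay below the highest library of 24 h, and B and C of 6 h lay above all 3. Means over the 3 replicates were 909 ± 441 (SD, n = 3) for 6 h, 715 ± 392 for 12 h, 474 ± 258 for 18 h and 272 ± 167 for 24 h. Its log2 change over the whole interval was −1.76 ± 0.60 (SE), with a 95% interval of −3.03 to −0.48 (limma adjusted p = 0.238). It was −1.91 ± 0.56 in replicates B and C (adjusted p = 0.0425) and −2.26 in the 10 libraries (adjusted p = 0.0135). The call in B and C ended without any one of the libraries of 6, 12 or 24 h, with adjusted p-values from 0.0527 to 0.33 in limma. The opposite gene CG7834 ends 14 bases beyond Drice and read 321 to 1349. The sources used here do not state whether counting used strand, so reads near both ends are uncertain.

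Dcp-1 (FBgn0010501) encodes the other effector caspase of the set and lies on the plus strand of chromosome 2R, at 23551313 to 23553547. The 6 h libraries A, B and C read 1159, 2265 and 3500, and those of 12 h read 2255, 1171 and 1538. Values were 2004, 1093 and 905 for 18 h, then 515, 1006 and 944 for 24 h. All 3 libraries of 24 h lay below all 3 of 6 h, replicate A included, as for 7.52% of all genes. Means over the 3 replicates were 2308 ± 1171 (SD, n = 3) for 6 h, 1655 ± 551 for 12 h, 1334 ± 588 for 18 h and 822 ± 267 for 24 h. The log2 change over the whole interval was −1.41 ± 0.42 (SE), with a 95% interval of −2.30 to −0.52 (limma adjusted p = 0.197). Dcp-1 fell in B and C by 1.53 ± 0.31 on the log2 scale (limma adjusted p = 0.00339), and in the 10 libraries by 1.84 (adjusted p = 0.00215). The call in B and C ended without replicate C of 6 h, at −1.22. Dcp-1 shares 239 exon bases with the opposite gene pita, at the 5′ side of Dcp-1. The values of pita were between 107 and 468, with 107 to 189 at 24 h, against 131 to 198 at 6 h. Without strand, reads from the shared bases cannot be assigned.

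Diap1 (FBgn0260635), the inhibitor, lies on the minus strand of chromosome 3L, at 16038410 to 16051034, with 6 annotated transcripts. The 6 h libraries A, B and C read 8723, 10537 and 10881, and those of 12 h read 9095, 7787 and 7221. Values were 8153, 8473 and 6608 for 18 h, then 5812, 4829 and 6239 for 24 h. The 3 libraries of 24 h were the lowest of the 12 and overlapped no other time. Of all genes, 7.52% had every library of 24 h below every library of 6 h, and 9.63% below every library of 18 h. The share of all genes with 24 h below every other time was not counted. Means over the 3 replicates were 10047 ± 1160 (SD, n = 3) for 6 h, 8034 ± 961 for 12 h, 7745 ± 997 for 18 h and 5627 ± 723 for 24 h.

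Diap1 was the most deeply read member, with 1139 to 3954 reads per library, against 23 to 362 for Dronc. Its log2 change over the whole interval was −0.84 ± 0.20 (SE), with a 95% interval of −1.27 to −0.41 (limma adjusted p = 0.136). Diap1 fell in B and C to 5534 ± 997 (SD, n = 2) at 24 h, against 10709 ± 244 at 6 h, by 0.96 ± 0.20 in log2 (SE, limma adjusted p = 0.00502). In the 10 libraries the change was −0.94 (adjusted p = 0.00213). Over the 3 sets the change of Diap1 lay between −0.96 and −0.84. The call in B and C ended without replicate B of 24 h, at −0.78. The opposite genes CR43951 and CR45889 lie inside Diap1, share no exon base with it and reached at most 142.

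**Figure D2:**
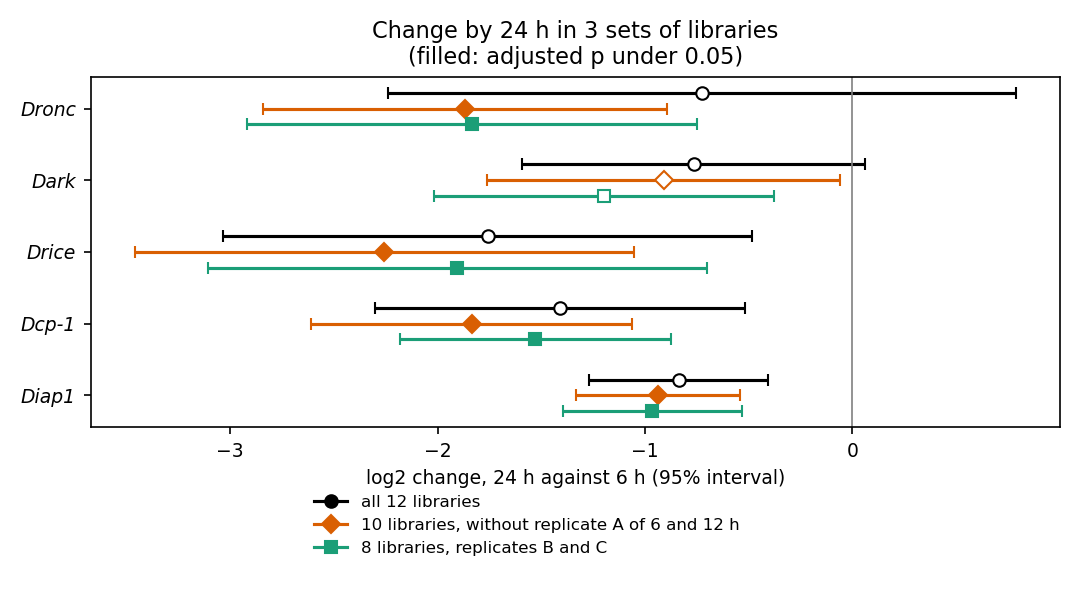
Log2 change of each gene at 24 h against 6 h with its 95% interval from limma, for 3 sets of libraries, filled where the adjusted p is under 0.05. All 15 estimates lie below 0. With 12 libraries none is filled, and with 10 or 8 libraries all but Dark are.

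Set against all genes, limma called 0 of the 5 members and 0 of the 6969 genes from 6 to 24 h with 12 libraries (0.0%). At an unadjusted p under 0.05 there were 3 of the 5 and 943 of the 6969. On reads recovered from the values, edgeR called 0 members and 0 of the 6969 genes. At an unadjusted p under 0.05 edgeR had 4 of the 5 members and 878 of the 6969 genes. DESeq2 called Dcp-1 and Diap1, 2 of 5, both lower, where it called 1.33% of all genes lower and 1.12% higher. In replicates B and C limma called 4 of the 5 lower, where 4.78% of all genes tested were called lower and 5.29% higher. In the 10 libraries it also called 4 of 5 lower, against 5.15% of all genes called lower and 6.39% higher. Without replicate A of 6 h alone, 4 of 5 were called lower, against 4.43% of all genes lower and 5.27% higher. The median log2 change of the members was −0.84 with 12 libraries and −1.53 in B and C, while that of all genes tested was −0.00 and 0.07. With 12 libraries 2 of the 5, Dcp-1 and Diap1, had every library of 24 h below every library of 6 h, as had 7.52% of all genes. In B and C all 5 had, as had 23.7% of all genes.

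Between 6 and 12 h, in normal development the step into axon pruning, no member passed the test in any of the 3 sets. With 12 libraries the log2 changes were 0.43 for Dronc, −0.18 for Dark, −0.34 for Drice, −0.39 for Dcp-1 and −0.32 for Diap1, each at a limma adjusted p of 0.995. None reached an unadjusted p under 0.05 there, as 331 of the 6969 genes did. Both edgeR and DESeq2 called 0 members, and edgeR called 0 of all genes. With 12 libraries no member had all of 12 h on one side of all of 6 h, while 3.19% of all genes were lower in this way and 4.89% higher. In B and C all 5 genes had both libraries of 12 h below both of 6 h, which 18.1% of all genes had. The changes there were −0.92 for Dronc, −0.56 for Dark, −1.26 for Drice, −1.07 for Dcp-1 and −0.51 for Diap1. The smallest adjusted p was that of Dcp-1, at 0.0557. Of all genes, limma called 2.3% lower and 3.3% higher in B and C, 1.97% and 3.19% in the 10 libraries, and 0.0% with 12 libraries, while DESeq2 called 0.0143% lower and 0.0287% higher. With replicate A left out, the mean at 12 h was 43.2% of that at 6 h for Drice, 47.0% for Dcp-1, 52.6% for Dronc, 67.8% for Dark and 70.1% for Diap1. For Dronc the positive log2 change with 12 libraries went against its means, of which that at 12 h was 89.0% of that at 6 h, and against edgeR and DESeq2 on the same libraries, at −0.24 and −0.25. Without replicate A of 6 h, at 99.1, limma gave −0.71.

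From 12 to 18 h no member passed in any set, and edgeR and DESeq2 called 0. In limma with 12 libraries 0 members had an unadjusted p under 0.05, against 428 of the 6969 genes. Of all genes, edgeR called 0. With 12 libraries the log2 change was −1.03 ± 0.71 (SE) for Dronc, −0.64 ± 0.60 for Drice and −0.34 ± 0.42 for Dcp-1. It was −0.05 ± 0.20 for Diap1, with a 95% interval of −0.49 to 0.38, and 0.30 ± 0.39 for Dark. In B and C Dark stood at 1382 ± 158 (SD, n = 2) at 18 h, against 776 ± 9.12 at 12 h, a log2 change of 0.83 ± 0.38 (limma adjusted p = 0.509). Replicate A went the other way, with 746 at 18 h, against 1256 at 12 h. For Dronc and Dcp-1 libraries B and C of 18 h lay below those of 12 h. Both libraries of 18 h lay below both of 12 h for 19.8% of all genes and above them for 18.9%. Of all genes, limma called 0.0% with 12 or 10 libraries, and 0.33% lower and 0.0287% higher in B and C, and DESeq2 called 0.043% lower and 0.0287% higher.

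From 18 to 24 h, in normal development the step towards regrowth, all 5 changes were below 0 with 12 libraries and none passed. They were −0.88 ± 0.39 (SE) for Dark and −0.46 ± 0.20 for Diap1, both at a limma adjusted p of 0.712. The changes were −0.78 for Drice, −0.67 for Dcp-1 and −0.12 for Dronc. Dark and Diap1 were the only 2 members with an unadjusted p under 0.05, as had 484 of the 6969 genes. With edgeR 0 members and 0 of all genes were called. The median of all genes tested was −0.11 in this step and 0.01 after median-ratio scaling, a shift of 0.12, and Dronc then had a change of −0.00. Every library of 24 h lay below every library of 18 h for Diap1, as for 9.63% of all genes. In B and C Dark had a log2 change of −1.46 ± 0.38 (adjusted p = 0.202). In the same libraries Dronc, Drice and Dcp-1 had changes of −0.00, −0.06 and −0.03. Of all genes, limma called 0.0% with 12 libraries, 0.0287% lower and 0.1% higher in B and C, and 0.0% lower and 0.143% higher in the 10 libraries. DESeq2 called 0.0143% lower and 0.301% higher, none of them a member.

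Any change over the 4 times was called for none of the 5 with 12 libraries, and for 0 of the 6969 genes. The smallest limma adjusted p of a member was that of Diap1, at 0.45. In limma 3 members and 690 of the 6969 genes had an unadjusted p under 0.05. With edgeR 0 members and 0 of all genes were called. In replicates B and C limma called Dcp-1 (adjusted p = 0.00875) and Diap1 (adjusted p = 0.0322), where 9.44% of all genes were called. In the 10 libraries it called Dronc as well (adjusted p = 0.037), where 9.31% of all genes were called. Without replicate A of 6 h alone, limma called 3 members and 7.26% of all genes, and DESeq2 called no member and 1.71% of all genes.

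The ratio of Diap1 to the 3 caspase genes summed is a description of each library, and no test was made on it. For the 6 h libraries A, B and C it was 5.23, 2.45 and 1.83, and for those of 12 h 2.13, 3.23 and 2.97. The ratio was 2.67, 4.77 and 4.06 at 18 h, and 6.16, 3.29 and 3.55 at 24 h. In B and C both libraries of 24 h lay above both of 6 h, and replicate A of 6 h stood above them. The ratio of Dark to Dronc was 8.57, 1.17 and 0.969 at 6 h and 1.43, 1.26 and 1.49 at 12 h. It was 2.07, 2.57 and 8.16 at 18 h and 3.24, 1.31 and 2.10 at 24 h. Its highest values were those of replicate A of 6 h and replicate C of 18 h, the libraries with the fewest Dronc reads, 23 and 37.

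**Figure D3:**
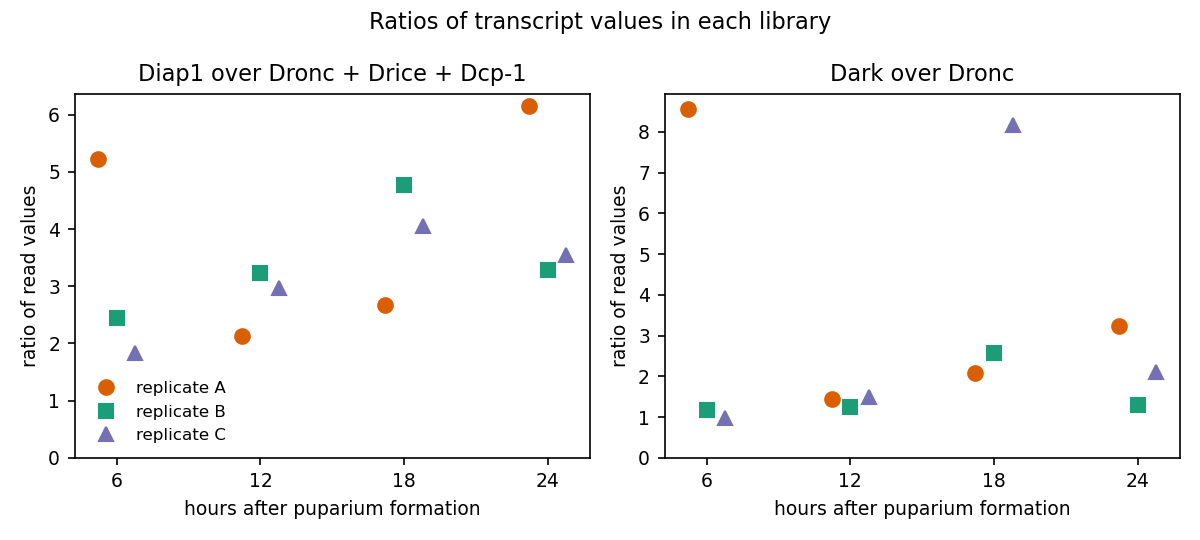
Ratio of Diap1 to the sum of Dronc, Drice and Dcp-1 (left) and of Dark to Dronc (right) in each library, against hours after puparium formation, both axes linear from 0. Replicate A of 6 h has the highest Dark to Dronc ratio, 8.57, and replicate A of 24 h the highest Diap1 ratio, 6.16.

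The 5 genes did not all follow each other across the 12 libraries. Drice and Dcp-1, the effector caspase genes, were the closest pair by Pearson's r of log2(value + 1) (r = 0.834, n = 12). Among 4711 genes with a mean of at least 200, Dcp-1 stood at place 46 by likeness to Drice, and Drice at place 69 by likeness to Dcp-1. Dark and Dcp-1 were the least alike pair (r = 0.241). These values describe libraries that share the order of the 4 times and the differences of replicate A, and no p is given.

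The genes most like Dronc were Pdk1 (r = 0.953), a kinase gene of growth signalling, CG9005 (0.936) and the histone acetyltransferase gene chm (0.925). Drice was most like the small GTPase gene Rab27 (0.934), CG18528 (0.934) and the cathepsin gene CtsB1 (0.918). Dcp-1 was most like CG5059 (0.95), the small heat shock protein gene Hsp23 (0.949) and CG4558 (0.937). Diap1 was most like the small GTPase gene Rab4 (0.943), CG11880 (0.907) and the autophagy gene Atg3 (0.897). Dark was most like the zinc transporter gene foi (0.929), the general transcription factor gene TfIIB (0.867) and Ehbp1 (0.852). No gene appears for more than 1 member.

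Other genes of cell death were described from a list of 38 genes, all of which were found in the table, 26 of them past the filter on low values. With 12 libraries limma called 0 of the 26 in any comparison of 2 times, and 0 of the 6969 genes. From 6 to 24 h 5 of the 26 had an unadjusted p under 0.05, against 943 of the 6969 genes. Over the whole interval in B and C, 2 of the 26 rose and 1 fell, where 5.29% of all genes were called higher and 4.78% lower, so these counts lie near the background. The median log2 change was 0.24, against 0.07 for all genes. In the 10 libraries 4 of the 26 rose and 2 fell, where 6.39% of all genes were called higher and 5.15% lower.

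Of the genes that release Diap1, the 4 death genes rpr, hid, grim and skl reached at most 21, 12, 27 and 50 reads in any library, and hid had a read in 2 of the 12. Of these, grim and skl passed the filter and neither passed the test, with log2 changes from 6 to 24 h of −0.62 ± 2.74 and −2.59 ± 2.05 (SE) with 12 libraries. The other genes of this group, Jafrac2, a peroxiredoxin gene, and HtrA2, a mitochondrial protease gene, averaged 233 and 28.7 over the 12 libraries. Of the other caspase genes, Decay was listed at 0 in all 12 libraries, Damm had at most 2 reads and Dredd, known from the immune response, at most 12. Strica had at most 22, and it shares 385 exon bases with the opposite gene Pngl.

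Of the other genes with a BIR domain, Bruce averaged 1707 and Diap2 255 over the 12 libraries, and neither passed the test. Diap2 had every library of 24 h above every one of 6 h, with 209 to 421 at 24 h, against 93.9 to 200 at 6 h, the opposite order to that of Diap1. Its log2 change was 0.95 ± 0.63 (SE; limma adjusted p = 0.544). Every library of 24 h lay above every library of 6 h for 8.25% of all genes.

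Of the mitochondrial and apoptosome genes, Cyt-c-d and Debcl were listed at 0 in all 12 libraries and Buffy had reads in 2. Cyt-c-p, which encodes the cytochrome c of the respiratory chain, read 1633, 112 and 194 in the 6 h libraries A, B and C, then 167, 515 and 712 at 12 h. It read 685, 1582 and 1004 at 18 h, then 791, 1041 and 1296 at 24 h. Without replicate A both libraries of 24 h lay above both of 6 h, as for 26.7% of all genes, and replicate A of 6 h was the highest of the 12 libraries. Cyt-c-p rose there by 2.97 ± 0.44 (SE) on the log2 scale (limma adjusted p = 0.000215), and from 6 to 12 h by 2.03 ± 0.44 (adjusted p = 0.0101). With 12 libraries the change over the whole interval was 1.63 ± 0.76 (limma adjusted p = 0.368), and that from 6 to 12 h was 0.26 ± 0.76 (adjusted p = 0.995). In the 10 libraries Cyt-c-p rose by 2.79 over the whole interval (limma adjusted p = 0.000147) and by 2.03 from 6 to 12 h (adjusted p = 0.0126). Tango7 encodes a translation factor subunit known to act with the apoptosome. With 12 libraries its log2 change from 6 to 24 h was 0.53 ± 0.37 (limma adjusted p = 0.576). Replicate A of 6 h read 2404 for Tango7, above all 3 libraries of 24 h. In B and C the change of Tango7 was 0.96 ± 0.34 (adjusted p = 0.09), and it rose in the 10 libraries, at the same size (adjusted p = 0.0469).

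A group of 6 genes was listed as regulators of Diap1 or Dronc by ubiquitin or phosphorylation, a role not examined here. Of these, eff passed the test in B and C and in the 10 libraries, and morgue, Ubr3, IKKepsilon, Cul3 and Bre1 did not. The protein Eff is a ubiquitin-conjugating enzyme that works with Diap1. Its gene read 16605, 17444 and 13800 in A, B and C at 24 h, against 18199, 30104 and 28606 at 6 h. All 3 libraries of 24 h lay below all 3 of 6 h, as they did for 7.52% of all genes, Diap1 and Dcp-1 among them. In B and C eff fell by 0.92 ± 0.17 in log2 (SE; limma adjusted p = 0.00214), and between 6 and 12 h by 0.66 ± 0.17 (adjusted p = 0.0354). With 12 libraries the change over the whole interval was −0.66 ± 0.25 (limma adjusted p = 0.284), and that from 6 to 12 h was −0.22 ± 0.25 (adjusted p = 0.995). In the 10 libraries eff fell over the whole interval, by 0.89 (limma adjusted p = 0.00245), and the call from 6 to 12 h was lost, at −0.66 (adjusted p = 0.0626).

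In the branch of the Eiger ligand and the JNK kinases, the ligand gene egr and the receptor genes wgn and grnd, listed as CG10176, had at most 11, 16 and 19 reads. The JNK gene bsk read 2398, 2060 and 1758 in A, B and C at 24 h, against 1120, 722 and 1165 at 6 h. Every library of 24 h thus lay above every one of 6 h, as for 8.25% of all genes. Its log2 change was 1.07 ± 0.31 (SE; limma adjusted p = 0.191) with 12 libraries, and bsk rose by 1.05 ± 0.30 in B and C (adjusted p = 0.0378). The kinase genes Tak1 and hep and the phosphatase gene puc did not pass the test in any comparison of 2 times in these 3 sets.

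The nuclease group holds Drep1, Drep2, Drep3 and Drep4, of the family of the caspase-activated DNase and its inhibitor, and Acn, whose protein is cleaved by caspases. Drep3 read 47.4, 549 and 244 in the 6 h libraries A, B and C, then 280, 181 and 189 at 12 h. It read 165, 16.9 and 24.7 at 18 h, then 15.3, 44.3 and 32.7 at 24 h. All 3 libraries of 24 h lay below all 3 of 6 h, as for 7.52% of all genes. Its log2 change was −2.68 ± 1.03 (SE; limma adjusted p = 0.284) with 12 libraries, and −3.23 ± 1.03 in B and C (adjusted p = 0.06), and it fell by 3.65 in the 10 libraries (limma adjusted p = 0.0381). Any change over the 4 times was also called for Drep3 in B and C (limma adjusted p = 0.0419). Drep3 shares 418 exon bases with CG44314 on the same strand, so its reads are uncertain. With 12 libraries the log2 change of Drep2 from 6 to 24 h was 0.65 ± 0.26 (limma adjusted p = 0.297). Drep2 rose in the 10 libraries, by 0.85 ± 0.25 (adjusted p = 0.0346), and in B and C its change was 0.89 ± 0.28 (adjusted p = 0.055). The genes p53 and Fadd averaged 68.3 and 35.4 and did not pass.

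**Figure D4:**
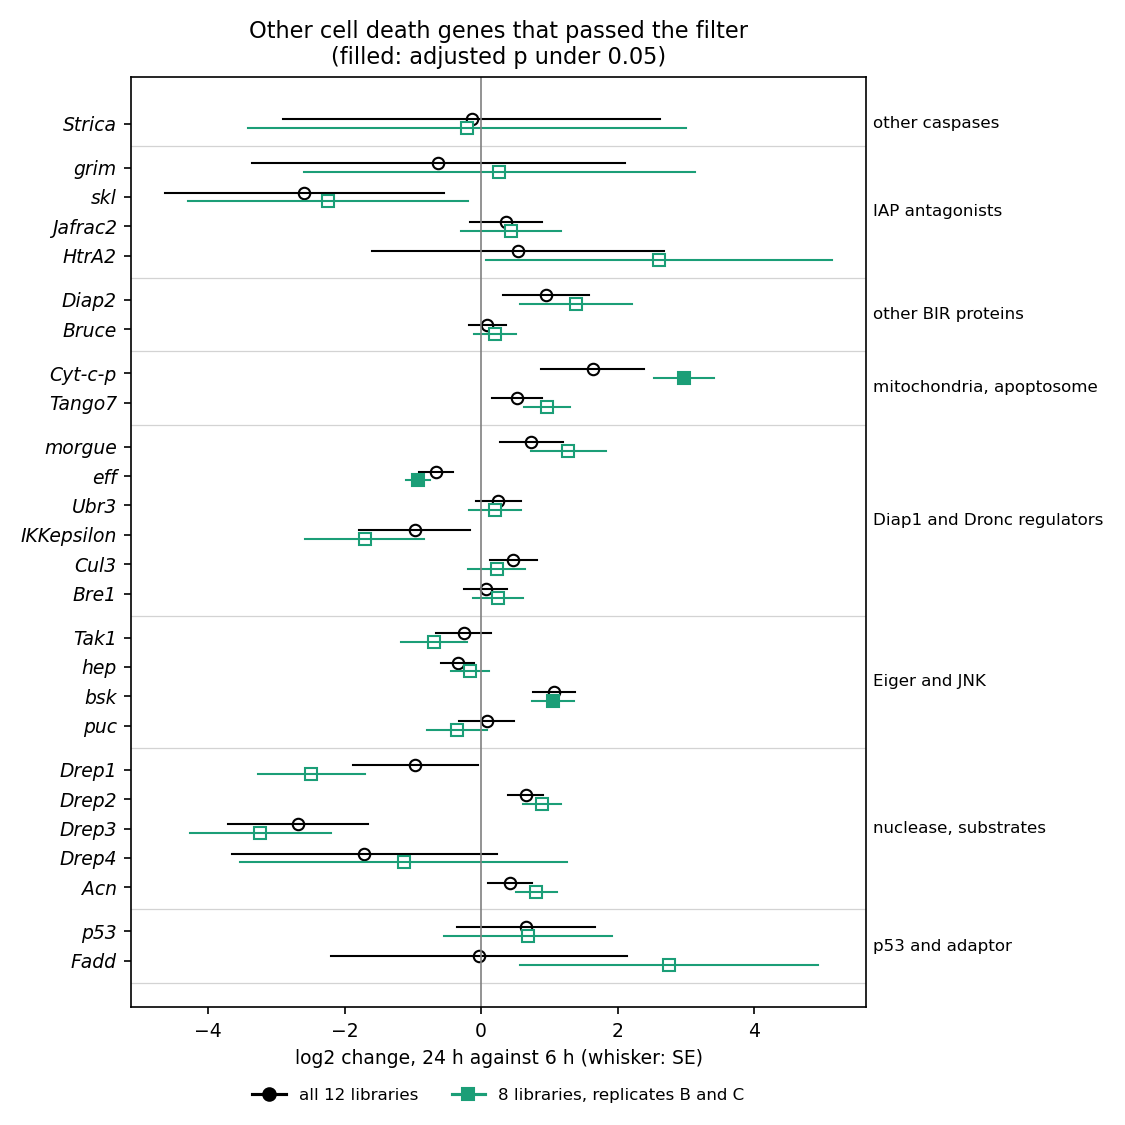
Log2 change at 24 h against 6 h with its SE for the 26 other cell death genes past the filter, by group, for 12 libraries (circles) and replicates B and C (squares), filled where the limma adjusted p is under 0.05. The filled squares are Cyt-c-p at 2.97, bsk at 1.05 and eff at −0.92.

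**Figure D5:**
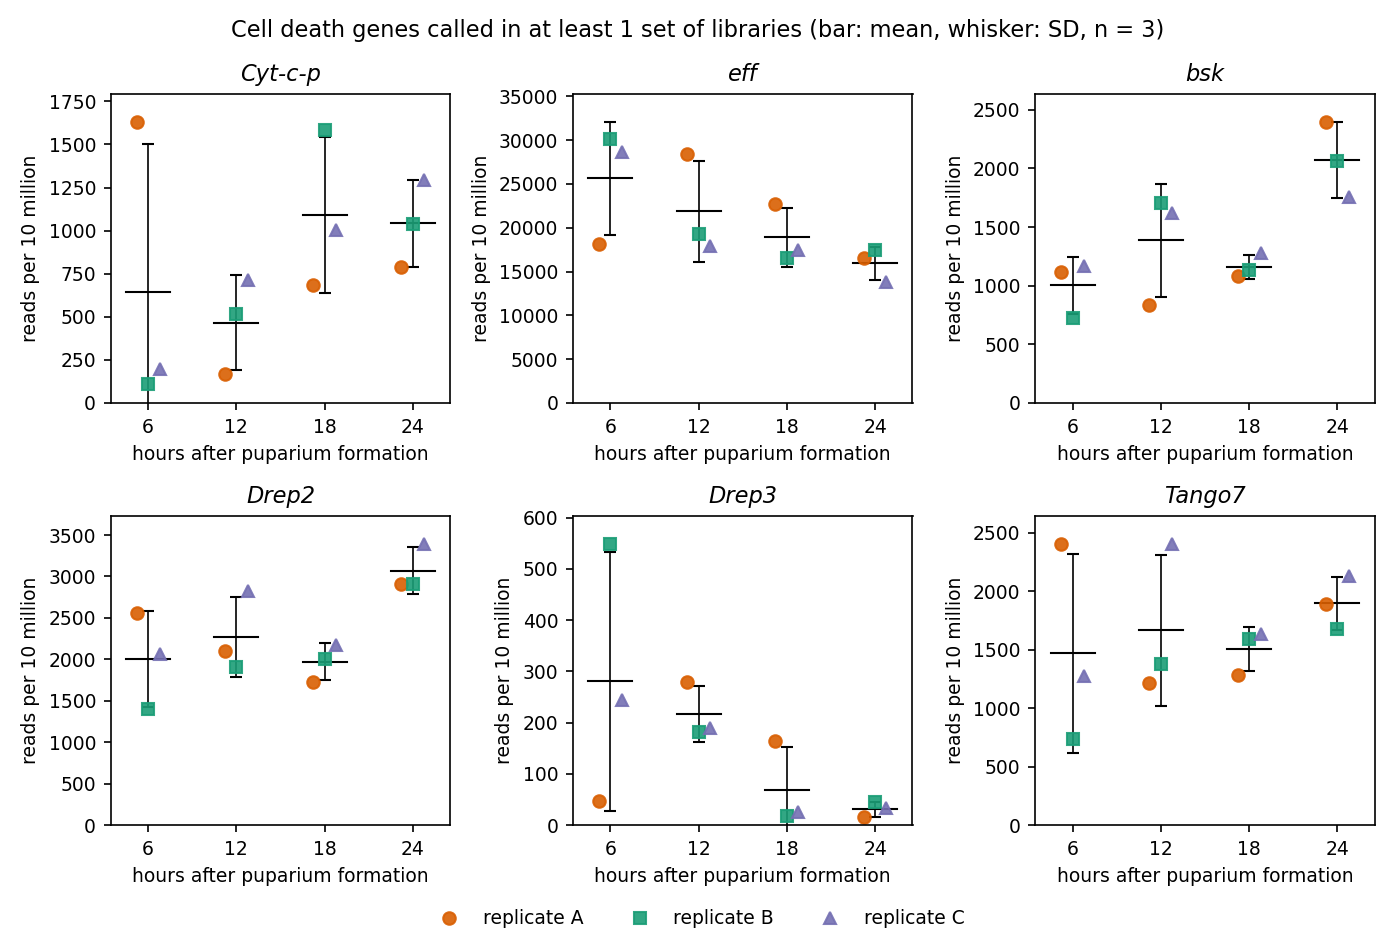
Value of the 6 genes of the list called in the 8 or the 10 libraries for 24 h against 6 h, in reads per 10000000 mapped reads on a linear axis from 0, against hours after puparium formation. Symbols are libraries, bars are means and whiskers SDs (n = 3). Replicate A of 6 h lies far above B and C for Cyt-c-p, at 1633.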

How the data were processed

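Per the labels, polyA RNA of 1000 sorted cells was read by MARS-seq. Tools named in the submitters' processing notes, with no roles, are bcl2fastq, HISAT 0.1.5 and HOMER. Handling of strand, multiply mapped reads and molecular identifiers is not stated. The deposited values are a signal that the authors scaled to 10000000 mapped reads per library, per the file headers. All were whole multiples of 1 read (tolerance 0.02 reads), so edgeR 4.0.16 and DESeq2 1.42.0 were run on the recovered reads as alternatives.

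The main test was two-sided in limma 3.58.1 under R 4.3.3, with trend, on log2(value + 1) of the 12 libraries and 1 mean per time. Benjamini-Hochberg adjustment ran over the 6969 genes that reached 50 (8 to 18.8 reads) in 3 or more libraries, and calls needed an adjusted p under 0.05. Fold changes on this scale understate those of low genes. The test was checked on simulated counts with known changes and no library that stood apart. Such a check cannot show how the test behaves on these libraries. Counting intervals are exact Poisson, at 95%, and cover counting error only.

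Starts in the table count from 0, so 1 was added, after which 96.0% of the genes found by symbol in the BDGP6 annotation had its coordinates. Alternatives were other sets of libraries, a replicate block, another pseudocount, no filter, median-ratio scaling and the count tools. Members, lists, tests and sets of libraries were chosen with earlier results of these data known. From the pathway list, the rule named genes called in any comparison and the 2 of each group with the highest mean, and the others named were chosen after their values were seen.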

Additional observations from a re-analysis of the deposited data

How the results depend on the processing

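With 12 libraries limma called 0 members, and 0 of all genes, in every comparison of times. Settings that kept all 12 libraries left the counts of members at 0, except DESeq2 from 6 to 24 h, with 2. From 6 to 24 h the count was 4 in replicates B and C and 4 in the 10 libraries without replicate A of 6 and 12 h. Leaving out 1 library of the 12 gave 0 to 4, the 4 without replicate A of 6 h. For any change over the 4 times it was 2 in B and C, 3 in the 10 libraries, and 0 to 3 with 1 library left out, the 3 again without replicate A of 6 h. Of the pathway list, genes called in at least 1 comparison of 2 times numbered 0 with 12 libraries, 3 in B and C, 6 in the 10 libraries and 2 by DESeq2, with 0 to 5 when 1 library was left out.

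Leaving out 1 of the 8 libraries of B and C, an alternative chosen after seeing the data, gave 1 to 4 members called from 6 to 24 h, with 2.88% to 5.01% of all genes called lower, where 1 time then has 1 library that is assumed to vary like the others. There were 2 calls without replicate B of 6 h, and 1 without replicate C of 6 h or B of 24 h. Dark was called only without replicate C of 24 h (−1.77, adjusted p = 0.018).

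From 6 to 12 h Dronc, at 0.43 with 12 libraries, stood at −0.92 in B and C and in the 10 libraries, at −0.24 with edgeR and at −0.25 with DESeq2, and lay between −0.71 and 1.08 with 1 library left out. Over the libraries left out, Drice lay between −0.84 and 0.0511 from 6 to 12 h, Diap1 between −0.13 and 0.0556 from 12 to 18 h (0.0382 in the 10 libraries), and Dronc between −0.52 and 0.19 from 18 to 24 h. The cause was not tested. Directions from 6 to 24 h were the same in every setting.

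The letter as a replicate block left 0 members and 0 of all genes called from 6 to 24 h (Diap1 −0.84, limma adjusted p = 0.286). Deviations of libraries with the same letter had correlations between −0.341 and 0.0706 across genes, so the letters were not taken to pair libraries. The fewest reads behind a member's value were 23, and counting error limits Dronc and Drice most.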
